A study of Mus musculus with 9 samples.

Results

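The cells compared here are BV-2 cells, an immortalised murine microglial line, after priming with a high (HP) or an ultra-low (ULP) dose of LPS, the endotoxin of Gram-negative bacteria. The members are the 3 HP and the 3 ULP libraries of poly(A) RNA, 6 of the 9 libraries of the series, chosen by the titles of the count columns and read over all genes with enough counts. HP cells received 100 ng/ml LPS first, ULP cells received 1 fg/ml first, and the remaining 3 libraries are of cells with no LPS at that step (UP). All 9 libraries share a later stimulation with 100 ng/ml LPS, so that every value below is a level after restimulation, and cells that saw no LPS at all are not analysed here. The study asked how the first dose shapes the answer to the later one, a smaller answer being called tolerance and a larger one training.

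A separate dose field of the labels gives the first dose as 1 fg/ml for HP and 100 ng/ml for ULP libraries, the other way round from the titles and descriptions. The direction of every difference below therefore rests on the titles. BV-2 is 1 transformed line. No label ties the libraries to separate cultures, and the p-values therefore cover the scatter among these particular libraries, part of which may be technical. The time of RNA harvest and whether the counting used strand are not given in the sources used here.

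LPS binds Cd14 and Tlr4, and the receptor signals through the adaptor MyD88 to NF-kB and through the adaptor TRIF to IRF3. NF-kB drives Tnf, Il1b and many chemokine genes, whereas IRF3 drives the gene of interferon beta. Secreted interferon beta then acts on its receptor, and the Janus kinases activate a complex with Stat2 and Irf9 that switches on a large set of antiviral genes. In microglia and macrophages a high first dose of LPS is known to dampen many of these genes when LPS returns.

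The libraries held 24189203 to 27802244 assigned counts. Of 14 microglial and macrophage markers 11 passed the filter on low counts, with Tyrobp, a signalling adaptor of myeloid cells, at 700.0 to 976 RPKM (reads scaled to gene length and library total), while the markers of resting microglia P2ry12 and Cx3cr1 reached at most 0.0573 and 0.0201 RPKM and Sall1 was at 0 in all libraries. The 5 astrocyte markers summed to 0.754 to 0.853 RPKM in HP, 0.95 to 1.32 in ULP and 1.09 to 1.43 in UP libraries, with Aqp4 at 0 in all, and the neuronal, fibroblast and lymphocyte lists each summed to at most 0.148 RPKM in any library. The oligodendrocyte markers summed to 0.221 to 0.421 RPKM in HP, 0.128 to 0.267 in ULP and 0.125 to 0.153 in UP libraries, with Mbp above all ULP libraries in HP (0.107 to 0.130 against 0.0536 to 0.0865 RPKM, unadjusted p = 0.0263 and adjusted p = 1.00 by edgeR), and the endothelial markers to at most 0.321 RPKM. The part of these levels in the results below was not tested, and in bulk RNA fewer expressing cells and less RNA per cell cannot be told apart. Libraries of a group differed strongly. The first principal component, with 79.1% of the variance, set HP 4 and HP 5 (57.5 and 75.5) apart from HP 6 (−20.4), and ULP 5 and ULP 6 (44.0 and 52.2) apart from ULP 4 (−39.2), which lay near the UP libraries (−73.0 to −46.4). The mean log2 CPM (counts scaled to the library total) of a list of nuclear long non-coding RNAs followed it, with 3.63, 4.39 and 1.70 in HP 4, HP 5 and HP 6, with 1.28, 3.21 and 3.29 in ULP 4, ULP 5 and ULP 6, and with 0.42 to 0.96 in UP libraries. On the second component (8.57% of the variance) HP libraries at −10.9 to 4.85 and ULP libraries at −9.85 to 2.15 overlapped. HP and ULP libraries did not overlap on the third component (4.61% of the variance), where HP libraries lay at 8.66 to 23, ULP libraries at −20.3 to −9.06 and UP libraries at −6.64 to 1.09.

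**Figure D1:**
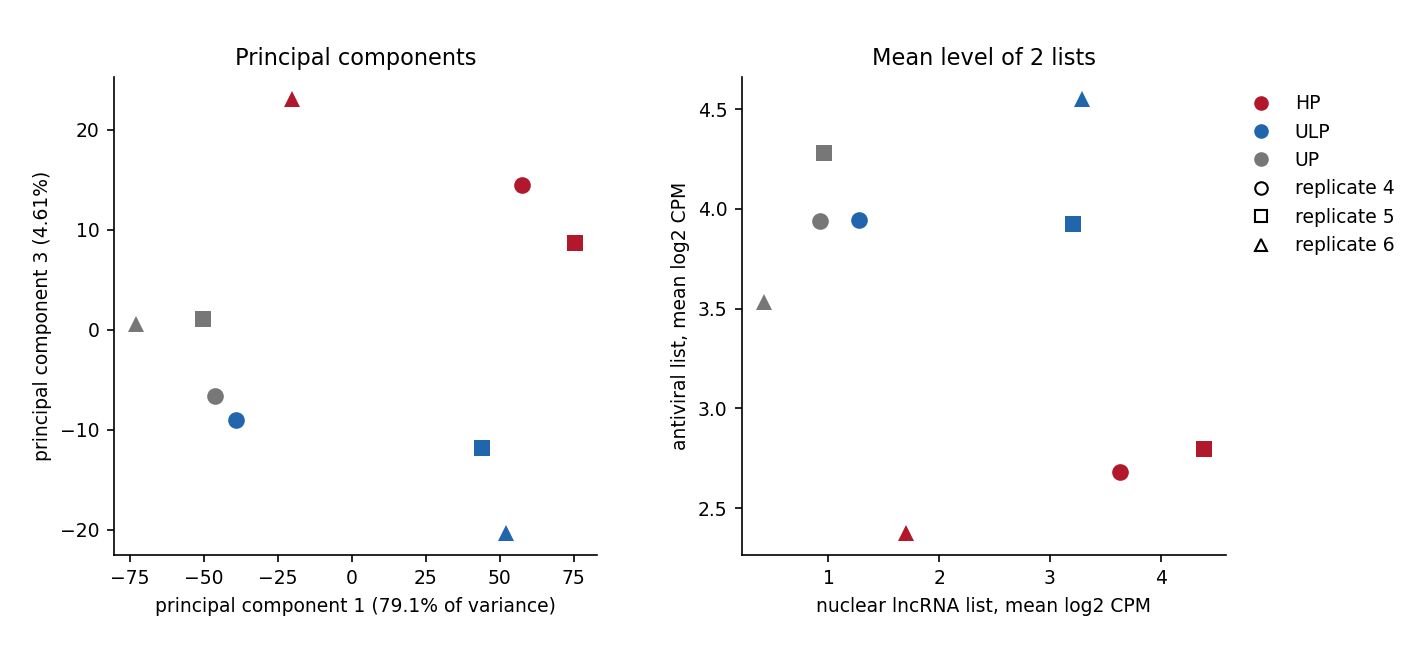
The left panel places the 9 libraries on principal components 1 and 3 of log2 CPM, and the right panel plots the mean log2 CPM of the antiviral list against that of the nuclear lncRNA list. Colours stand for the group and shapes for the replicate number. HP and ULP libraries are mixed along the horizontal axes, and the HP libraries lie above the ULP libraries on component 3 and below them in the antiviral list (2.38 to 2.80 against 3.92 to 4.55).

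HP cells held less RNA of interferon-stimulated genes than ULP cells. Of 14702 genes tested, 22 (0.15%) were lower and 3 (0.0204%) were higher in HP than in ULP cells at a Benjamini-Hochberg adjusted p under 0.05 by edgeR's quasi-likelihood test over all 9 libraries. Of the 22 lower genes 17 stand on 3 lists of the interferon pathway, 1 stands on another list (Cxcl10), and 4 stand on none (Apol9a, Ifit1bl1, Mpeg1 and Trafd1). The 3 lists hold 30, 10 and 18 tested genes. They were chosen with earlier results of these data known, so the 17 is a description only. The levels of the 22 genes in ULP cells were 2.02-fold to 20.7-fold those in HP cells. The lowest ULP library lay 1.63-fold to 11.0-fold above the highest HP library, with a median of 2.67-fold over the 22 genes, while the highest and the lowest library differed by a median of 1.38-fold within HP and 1.60-fold within ULP. The 22 genes were chosen by a test on these same libraries, which favours a wide gap and a narrow spread, so these values only describe them.

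The number of calls depended on which libraries were fitted. It was 0 when only the 6 HP and ULP libraries were fitted (657 genes at an unadjusted p under 0.05) and without HP 4, HP 5 or HP 6 (341, 455 and 1091 such genes), and it was 14 without ULP 4, 6 without ULP 6, 6 without UP 4 and 8 without ULP 4 and HP 6. In the full fit 579 genes (3.94%) had an unadjusted p under 0.05, below the 5% that this threshold passes where no gene differs, DESeq2 called 11 higher (0.0748%) and 96 lower (0.653%), and limma on log2(RPKM + 0.1) called 3 higher and 22 lower. All 25 genes kept their direction in each of the 27 other settings.

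**Figure D2:**
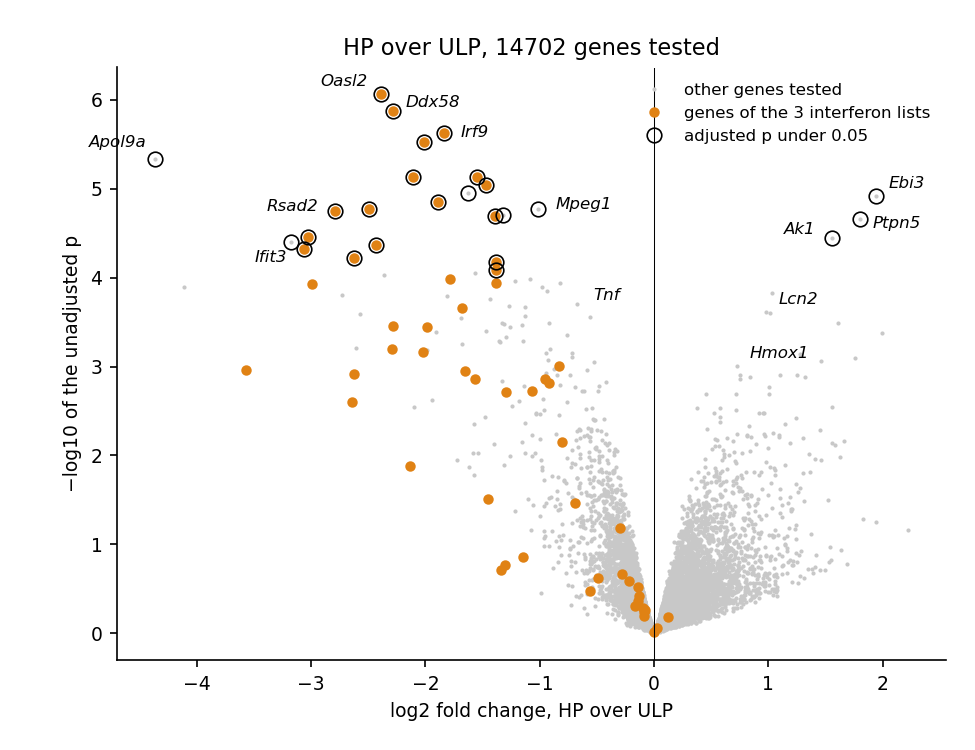
Each point is a gene, with the log2 fold change of HP over ULP on the horizontal axis and −log10 of the unadjusted p on the vertical axis. Orange points are genes of the 3 interferon lists and rings mark the 25 genes with an adjusted p under 0.05, of which 22 lie left of 0.

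The interferon beta gene Ifnb1 had too few counts to be tested, with 2, 1 and 2 counts in HP, 7, 9 and 8 in ULP and 12, 2 and 4 in UP libraries. Every HP library lay below every ULP library, at a depth where a few reads decide the value. The receptor subunit Ifnar1 had a log2 fold change of HP over ULP of −0.08 ± 0.15 (SE), its partner Ifnar2 one of 0.01 ± 0.13, and the interferon gamma receptor subunits Ifngr1 and Ifngr2 had −0.01 ± 0.13 and −0.13 ± 0.13, all with unadjusted p of 0.332 or more by edgeR. Among 29 genes of Toll-like receptor signalling 0 were called in either direction, against 4 lower and 1 higher at an unadjusted p under 0.05 (2.32% and 1.62% of all genes) and 0 by DESeq2, and their median log2 fold change was −0.12, beside 0.02 over all genes tested. Tlr4 itself was at 8.13, 9.26 and 3.94 RPKM in HP, 4.23, 10.2 and 11.4 in ULP and 3.28, 2.87 and 2.41 in UP libraries. HP 6 and ULP 4 had the lowest Tlr4 levels of their groups, the HP and ULP libraries overlapped (log2 fold change −0.29 ± 0.38, adjusted p = 1.00 by edgeR), and without replicate 6 the sign turned to 0.22. Myd88, the adaptor towards NF-kB, was at 34.4, 32.5 and 41.1 RPKM in HP, 47.9, 38.6 and 40.7 in ULP and 50.3, 47.6 and 48.6 in UP libraries, and HP 6 overlapped ULP 5 and ULP 6. Cd14, which hands LPS to Tlr4, was at 38.7, 33.6 and 43.9 RPKM in HP, 64.0, 55.1 and 51.1 in ULP and 66.7 to 72.4 in UP libraries, with no overlap between the groups (−0.59 ± 0.15, adjusted p = 0.351).

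Among the interferon regulatory factors, STATs and Janus kinases, 3 of 18 genes were lower in HP cells (Irf9, Irf7 and Stat2). None was higher, beside 0.15% lower and 0.0204% higher of all genes. At an unadjusted p under 0.05 by edgeR 5 were lower, beside 2.32% of all genes, and the list's median log2 fold change was −0.14. Irf9, the DNA-binding part of the complex that interferon beta activates, was at 1.22, 1.37 and 1.29 RPKM in HP, 5.30, 3.71 and 4.45 in ULP and 5.20, 4.09 and 5.14 in UP libraries. The 3 HP libraries lay close together and far below all others, with a log2 fold change of HP over ULP of −1.84 ± 0.18 (adjusted p = 0.0109). Irf7, which sustains interferon production once it is induced, was at 1.38, 1.53 and 1.95 RPKM in HP, 6.71, 5.16 and 8.61 in ULP and 7.56, 8.91 and 6.34 in UP libraries. ULP and UP libraries overlapped and HP libraries lay below both (log2 fold change −2.11 ± 0.24, adjusted p = 0.0155). Stat2, the partner of Irf9, was at 4.77, 6.04 and 4.46 RPKM in HP, 11.9, 11.0 and 16.1 in ULP and 11.8, 10.3 and 10.1 in UP libraries, again with every HP library below the rest (−1.39 ± 0.17, adjusted p = 0.0183).

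Other factors of the same list gave smaller values. Irf1, a factor induced by both interferon types, had a log2 fold change of −0.95 ± 0.21 and missed the threshold (adjusted p = 0.209 by edgeR). Irf3, which is activated by phosphorylation rather than by more RNA, was at 8.47, 6.5 and 8.64 RPKM in HP, 8.78, 7.96 and 7.89 in ULP and 8.67 to 9.23 in UP libraries, and HP and ULP libraries overlapped. The Janus kinases Jak1, Jak2 and Tyk2 had log2 fold changes of −0.08, 0.12 and −0.22, with unadjusted p of 0.258 or more.

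Of 35 listed interferon-stimulated genes 30 were tested, and 12 were lower and 0 were higher in HP cells, beside 0.15% and 0.0204% of all genes. All 30 had a negative log2 fold change, beside 6579 of all 14702 genes tested, with a median of −1.72. At an unadjusted p under 0.05 by edgeR there were 26 lower, beside 2.32% of all genes. For 25 genes all HP libraries lay below all ULP libraries, beside 5.16% of all genes, and DESeq2 called 22 lower, beside 0.653%. The list's count was 0 with only the 6 libraries and without HP 4, HP 5 or HP 6, 7 without ULP 4, 2 without ULP 6 and 3 without UP 4. The genes Ifih1 and Ifi44l were at 0 counts in all libraries.

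Sensors of foreign nucleic acids were among the 12. Ddx58, which encodes the cytosolic RNA sensor RIG-I, was at 0.429, 0.569 and 0.400 RPKM in HP, 2.45, 1.76 and 2.44 in ULP and 2.16, 1.83 and 1.73 in UP libraries. All HP libraries were below the other 6 libraries (log2 fold change −2.29 ± 0.21, adjusted p = 0.00976). Its relative Dhx58, or LGP2, which tunes RNA sensing, had a log2 fold change of −1.89 ± 0.23, with 1.55 to 1.88 RPKM in HP, 4.66 to 7.67 in ULP and 4.87 to 7.22 in UP libraries. Zbp1, a sensor of left-handed nucleic acids that can trigger cell death, had low levels, with 0.0977, 0.0723 and 0.0554 RPKM in HP, 0.553, 0.425 and 0.855 in ULP and 0.566, 0.784 and 0.387 in UP libraries. Its HP libraries rested on 9, 7 and 5 counts, against 51, 40 and 73 in ULP libraries (−3.03 ± 0.41, adjusted p = 0.0277).

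Many members of the oligoadenylate synthetase family make the signal that activates RNase L, and Oasl1 is known in mice to restrain translation of Irf7. Oasl2 was at 0.991, 1.12 and 1.02 RPKM in HP, 5.67, 3.93 and 6.41 in ULP and 5.58, 6.04 and 4.65 in UP libraries. HP libraries lay close together and ULP libraries spread into the range of UP (log2 fold change −2.39 ± 0.21, adjusted p = 0.00976). Oasl1, the most abundant of the called genes, was at 28.1, 29.8 and 32.1 RPKM in HP, 103, 65.8 and 86.5 in ULP and 105, 101 and 104 in UP libraries. ULP 5 and ULP 6 lay between the HP and the UP libraries, and ULP 4 lay within the range of UP by RPKM and below all UP libraries in scaled CPM (−1.55 ± 0.17, adjusted p = 0.0155). Oas3 had a log2 fold change of −1.47 ± 0.17 (adjusted p = 0.0168), whereas Oas2, Oas1a and Oas1g had −1.66, −0.92 and −0.83 and missed the threshold.

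The Ifit genes encode proteins that bind foreign RNA or the protein that does so. Ifit3 was at 0.834, 1.21 and 0.650 RPKM in HP, 7.01, 4.56 and 10.6 in ULP and 7.31, 11.0 and 4.58 in UP libraries. HP libraries lay below all others and ULP and UP libraries spanned much the same range (log2 fold change −3.07 ± 0.43, adjusted p = 0.0322). Its near-identical copy Ifit3b had −2.63 ± 0.38 and the relative Ifit1bl1 −3.17 ± 0.43, and since the treatment of reads that match several places is not given, reads of such copies may have been shared or lost. Ifit1 and Ifit2 varied more, Ifit2 with 3.01, 4.00 and 1.01 RPKM in HP, 3.86, 10.2 and 20.9 in ULP and 4.35, 6.62 and 1.79 in UP libraries. HP 5 lay above ULP 4 on this scale, and neither gene passed the threshold (−2.62 ± 0.57 for Ifit1 and −2.13 ± 0.70 for Ifit2, adjusted p = 0.198 and 0.769).

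Further effectors with other modes of action were also lower. Rsad2, or viperin, which makes a nucleotide that stops viral polymerases, was at 0.389, 0.497 and 0.244 RPKM in HP, 2.09, 1.91 and 3.72 in ULP and 1.95, 1.89 and 1.25 in UP libraries. ULP 6 was the highest of all 9 libraries and HP 6 the lowest (log2 fold change −2.79 ± 0.35, adjusted p = 0.0183). Mx1, a GTPase that traps viral nucleocapsids, had −2.43 ± 0.34, Xaf1, a partner of an apoptosis inhibitor, −2.50 ± 0.31, and Parp14, an ADP-ribosyltransferase, −1.39 ± 0.21, close to the threshold (adjusted p = 0.0476). Isg15, a ubiquitin-like modifier, and its deconjugase Usp18 had −1.99 ± 0.36 and −1.79 ± 0.28 with adjusted p of 0.0911 and 0.0529, which missed it.

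The order of the libraries within a group was shared by most of the 22 genes. HP 5 was the highest HP library for 17 of them and HP 6 the lowest for 14, while ULP 6 was the highest ULP library for 19 and ULP 5 the lowest for 18. The order over all genes tested was not counted, so it is not known to be particular to these genes. On the first principal component HP 5 was also the highest and HP 6 the lowest HP library. There ULP 6 was the highest ULP library as well, whereas ULP 4 and not ULP 5 was the lowest.

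**Figure D3:**
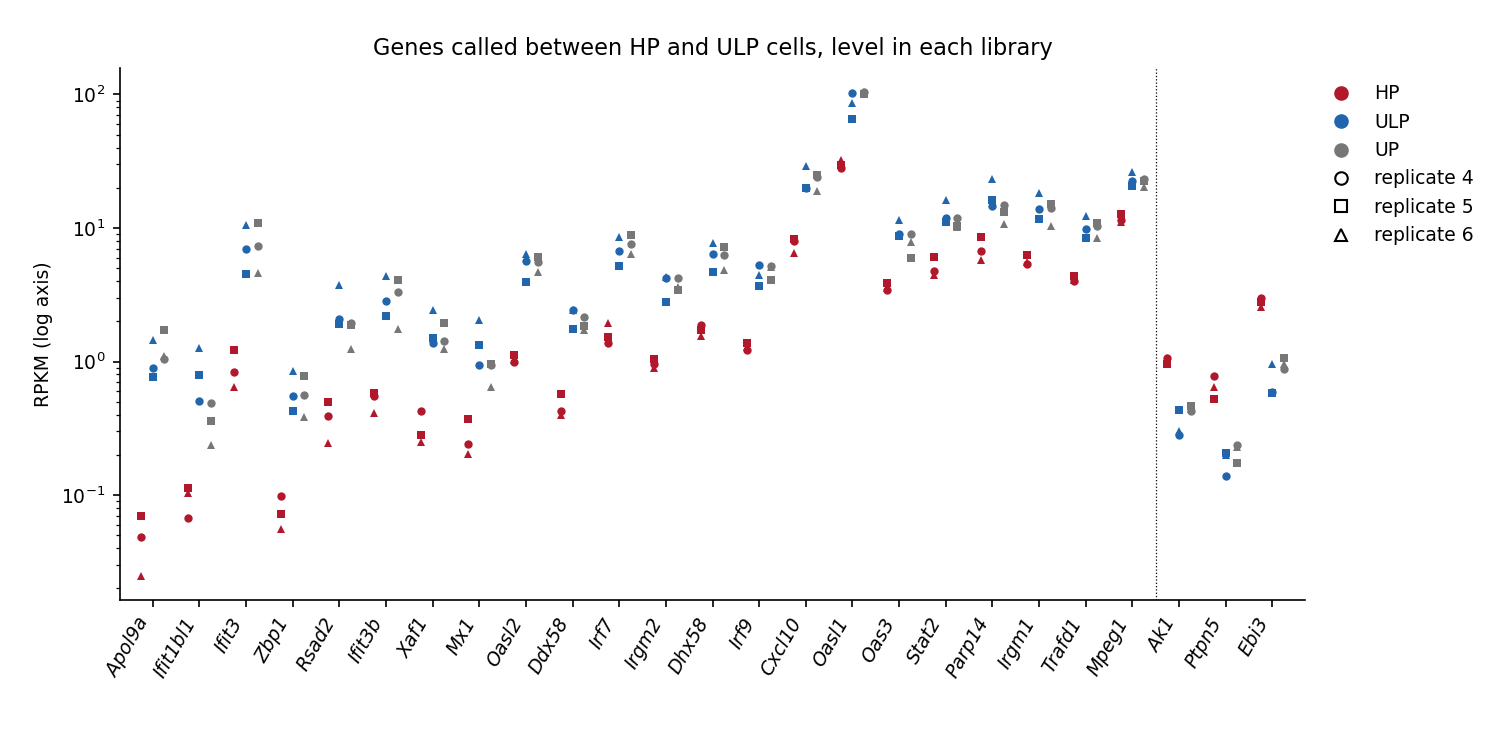
Deposited RPKM on a log axis of the 25 genes called between HP and ULP cells, 1 point per library, with HP, ULP and UP libraries from left to right within each gene and the replicate number as shape. Left of the dotted line all HP points lie below all ULP points, for Oasl2 at 0.991 to 1.12 against 3.93 to 6.41, and right of it above them.

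Interferon gamma-induced GTPases, many but not all of which attack the vacuoles of intracellular microbes, also had members that were lower in HP cells. Of 15 listed genes 10 were tested, 2 were lower (Irgm2 and Irgm1) and 0 were higher, beside 0.15% and 0.0204% of all genes. At an unadjusted p under 0.05 by edgeR 8 were lower, beside 2.32% of all genes. DESeq2 called 8 lower, beside 0.653% of all genes, and the median log2 fold change was −1.84. Irgm2 was at 0.955, 1.05 and 0.891 RPKM in HP, 4.23, 2.81 and 4.32 in ULP and 4.20, 3.42 and 3.60 in UP libraries, so that HP libraries were again apart from the rest (−2.01 ± 0.20, adjusted p = 0.0109). Irgm1 had −1.38 ± 0.20 (adjusted p = 0.0404), and Igtp and Gbp2 had −1.38 ± 0.22 and −1.68 ± 0.29 with adjusted p of 0.0529 and 0.0730. Gbp3 and Gbp7 overlapped, with 0.132 to 1.14 RPKM of Gbp3 in HP and 0.223 to 3.15 in ULP libraries. Both interferon types induce many of these GTPases.

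Outside the interferon lists, the chemokine Cxcl10, which draws activated T cells, was at 7.97, 8.24 and 6.44 RPKM in HP, 19.9, 19.9 and 29.0 in ULP and 24.3, 25.0 and 18.9 in UP libraries. The HP libraries were below all others, with a log2 fold change of −1.63 ± 0.19 (adjusted p = 0.0179). Mpeg1, the pore-forming perforin-2 of phagosomes, was at 11.5, 12.6 and 11.2 RPKM in HP, 22.6, 20.6 and 26.2 in ULP and 23.3, 22.4 and 20.2 in UP libraries (log2 fold change −1.01 ± 0.12, adjusted p = 0.0183). Trafd1, a zinc finger protein that restrains innate signalling, had −1.32 ± 0.17 with the same adjusted p. Apol9a, of the apolipoprotein L family, had 2, 3 and 1 counts in HP and 37, 32 and 55 in ULP libraries. Summed and set against library totals, the ULP level was 21.2-fold the HP level, with an exact 95% interval of 9.49 to 59.0 that covers counting error only. Its copy Apol9b shares sequence with it, so that both values are uncertain.

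Relative to UP cells the 22 genes were low in HP cells and near the UP level in ULP cells. Their log2 fold changes of HP over UP ran from −4.78 to −1.0, and those of ULP over UP from −0.41 to 1.14. HP libraries lay below all UP libraries for 22 of 22 genes, beside 20.9% of all genes, while ULP and UP libraries overlapped for 19 of 22 and were apart for 28.3% of all genes. These contrasts share libraries with the choice of the genes and are given as a description. Over all genes edgeR called 13 higher (0.0884%) and 64 lower (0.435%, 0.524% in all) in HP over UP cells, where DESeq2 called 2505 higher and 1145 lower, and 0 (0%) in ULP over UP cells, where 3990 genes (27.1%) had an unadjusted p under 0.05, DESeq2 called 1048 and limma on log2(RPKM + 0.1) called 0.

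Promoter sequence was read for the 22 genes because they move together and many are known targets of the complex with Stat2 and Irf9, which binds the interferon-stimulated response element. RefSeq windows of 300 bases on GRCm38.p6, 250 before and 50 after a start, were found for 18 of the 22 genes. The letters GAAA, any 2 bases and GAAA again, on either strand, occurred in 11 of these 18 genes (61.1%), against 3.83% of the 9063 tested genes with a window and 3.99% of all 27025 genes with one. Of the tested antiviral list, called or not, 13 of 21 genes with a window held them (61.9%), so the share does not set the called genes apart from that list. The NF-kB-like letters GGGAA, any 3 bases and CC, on either strand, occurred in 4 of 18 (22.2%), against 8.10% of the tested genes. Cxcl10, Rsad2 and Ifit1bl1 held both, with 0 overlaps between matches of the 2 kinds, and of the 3 higher genes 0 held the first and 1 (Ebi3) held the second. A match is a description of these letters and no evidence of binding, and a window without one says nothing about the factor. The stretches shown are from 6 of these 11 genes, chosen after their values were seen to span the roles described above (RNA binding, viperin, a GTPase, a transcription factor and a chemokine), 30 bases in the direction of transcription with the match in capitals (TTTC, 2 bases and TTTC is the same motif on the other strand).
Ifit3, chr19:34583363-34583392, plus strand: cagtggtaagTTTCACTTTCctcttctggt
Ifit3b, chr19:34607759-34607788, plus strand: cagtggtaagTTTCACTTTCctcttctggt
Rsad2, chr12:26456553-26456582, minus strand: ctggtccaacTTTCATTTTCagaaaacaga
Irgm2, chr11:58214903-58214932, plus strand: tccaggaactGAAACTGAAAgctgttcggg
Stat2, chr10:128270266-128270295, plus strand: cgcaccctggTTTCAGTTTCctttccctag
Cxcl10, chr5:92349083-92349112, minus strand: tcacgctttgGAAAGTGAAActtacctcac
The match shown began 156 bases before the start in Ifit3 and 188 in Ifit3b, and the 30 bases of these copies are identical. Each of these 2 windows also held a second match, not shown, 122 bases before the start in Ifit3 and 154 in Ifit3b. The match shown began 120 bases before the start in Rsad2, 64 in Irgm2, 222 in Stat2 and 213 in Cxcl10.

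Only 3 genes were higher in HP than in ULP cells. Ebi3, a subunit of heterodimeric cytokines of the interleukin-12 family, was at 2.98, 2.80 and 2.57 RPKM in HP, 0.588, 0.578 and 0.954 in ULP and 0.886, 1.07 and 0.953 in UP libraries. HP libraries were above all others (log2 fold change 1.95 ± 0.23, adjusted p = 0.0179). Ptpn5, a tyrosine phosphatase best known from neurons, was at 0.773, 0.528 and 0.648 RPKM in HP, 0.139, 0.207 and 0.20 in ULP and 0.239, 0.175 and 0.230 in UP libraries (1.80 ± 0.23, adjusted p = 0.0190). Ak1, an adenylate kinase that balances ATP, ADP and AMP, was at 1.06, 0.956 and 1.06 RPKM in HP, 0.280, 0.434 and 0.303 in ULP and 0.430, 0.466 and 0.444 in UP libraries, and its ULP libraries held 19 to 30 counts (1.56 ± 0.21, adjusted p = 0.0277). None of the 3 was called without ULP 4, without UP 4, without any 1 HP library or with only the 6 libraries.

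Of the other 32 lists, with 531 genes tested, edgeR called only Cxcl10, and 55 genes lower and 10 higher had an unadjusted p under 0.05. Over all genes tested these shares were 2.32% lower and 1.62% higher by edgeR at that threshold, and 0.653% and 0.0748% by DESeq2's calls. DESeq2 called 12 of them lower, among them Cxcl10, Tnf, Axl, Tap1 and Il1b, and 2 higher (Lcn2 and Hmox1). The inflammatory list of 16 tested genes had 0 called by edgeR, 5 lower and 1 higher at an unadjusted p under 0.05, and a median log2 fold change of −0.24, and DESeq2 called 2 lower and 1 higher. Tnf, the early cytokine of the answer to LPS, was at 184, 184 and 174 RPKM in HP, 303, 268 and 272 in ULP and 320, 285 and 324 in UP libraries. HP libraries lay below all others, and the log2 fold change of −0.68 ± 0.11 missed the threshold (unadjusted p = 0.000197, adjusted p = 0.0707 by edgeR). Il1b, a cytokine that needs cleavage by caspases, was at 72.1, 77.1 and 71.6 RPKM in HP, 155, 121 and 138 in ULP and 163, 238 and 143 in UP libraries, with HP below the rest (−0.95 ± 0.21, adjusted p = 0.198). Lcn2, an iron-sequestering lipocalin, went the other way with 5.36, 5.14 and 4.19 RPKM in HP, 2.55, 2.13 and 2.55 in ULP and 2.1 to 2.57 in UP libraries (0.98 ± 0.17, adjusted p = 0.0796).

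None of the other tested products that the study measured was called by edgeR or DESeq2. The study measured these products in primary microglia of newborn mice and not in BV-2 cells. Nos2, Pik3cg, Tnf, Il6 and Il10 were measured there as protein and Rela as a phosphorylated protein. Tlr4 and Myd88 were measured as RNA and protein, and Hif1a as RNA. The RNA levels given here are therefore an unlike measure in other cells. Nos2, which makes nitric oxide, was at 2.98, 3.02 and 3.08 RPKM in HP, 3.68, 2.82 and 3.44 in ULP and 4.00, 8.33 and 3.43 in UP libraries, with ULP 5 below all HP libraries (−0.17 ± 0.32, adjusted p = 1.00). Il6 and Il10 had at most 14 counts in any library and were not tested, with 2, 2 and 0 counts of Il6 in HP against 3, 14 and 11 in ULP libraries. HP libraries lay below ULP libraries for Il6, at a depth where a few reads decide the value. Hif1a, the oxygen-regulated factor, was at 28.2, 30.1 and 16.3 RPKM in HP, 15.4, 31.2 and 32.6 in ULP and 8.97 to 14.1 in UP libraries, with HP 6 and ULP 4 apart from their groups and a log2 fold change of −0.11 ± 0.31 whose sign turned without HP 6, ULP 5 or ULP 6. Pik3cg, the catalytic kinase gamma of the PI3K family, and Rela, an NF-kB subunit, had −0.01 ± 0.14 and −0.17 ± 0.15 and overlapped, and the sign of Pik3cg turned in 5 settings.

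Among 11 tested chemokines 5 were lower at an unadjusted p under 0.05 by edgeR, with a median log2 fold change of −0.31. Over all genes tested 2.32% were lower and 1.62% were higher at that threshold. Ccl3, the most abundant of them, was at 1229, 1143 and 1125 RPKM in HP, 1865, 1499 and 1532 in ULP and 1799 to 1897 in UP libraries, so that HP libraries were below the rest (−0.53 ± 0.14, adjusted p = 0.410). Ccl5, which also responds to interferon, had −1.33 ± 0.30 (adjusted p = 0.216). Ccl2, Ccl7 and Ccl12 overlapped between HP and ULP libraries. In the list of negative regulators of endotoxin signalling edgeR called 0 of 32 and DESeq2 2 lower, with a median of −0.14 and 4 lower and 2 higher at an unadjusted p under 0.05. Axl, a receptor tyrosine kinase that interferon induces, had −1.82 ± 0.30 (adjusted p = 0.0604), and Sigirr, a receptor that blocks interleukin-1 and Toll-like signalling, was at 2.48, 2.1 and 2.92 RPKM in HP, 1.63, 1.44 and 1.36 in ULP and 1.87 to 2.21 in UP libraries (0.72 ± 0.18, adjusted p = 0.356).

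The lists of MHC class I antigen presentation, cholesterol synthesis and the integrated stress response had small negative medians, with larger values for single genes. Other lists of metabolism did not lean this way, with medians of −0.02 for glycolysis and hypoxia targets and 0.005 for the tricarboxylic acid cycle. Over all 14702 genes tested 6579 had a negative log2 fold change, and 2.32% were lower at an unadjusted p under 0.05 by edgeR. Of 15 MHC class I and immunoproteasome genes 14 had a negative log2 fold change, 6 at an unadjusted p under 0.05 and 0 called (median −0.32), and DESeq2 called 1. Tap1, the peptide transporter, was at 4.82, 4.56 and 5.77 RPKM in HP, 12.9, 8.24 and 11.1 in ULP and 12.0 to 14.9 in UP libraries (−1.13 ± 0.20, adjusted p = 0.0817). Of 19 genes of cholesterol synthesis 18 were negative, 8 at an unadjusted p under 0.05, with a median of −0.33, Cyp51 at −0.39 ± 0.11 having the smallest p among them (adjusted p = 0.561), and neither edgeR nor DESeq2 called any. Of 14 genes of the integrated stress response 13 were negative, 6 at an unadjusted p under 0.05 (median −0.36), and edgeR called 0 and DESeq2 3. Chac1, a glutathione-degrading enzyme, was at 0.912, 0.980 and 1.12 RPKM in HP, 2.55, 1.79 and 2.17 in ULP and 1.71 to 2.35 in UP libraries (−1.15 ± 0.22, adjusted p = 0.116), and Trib3, a pseudokinase, had −0.91 ± 0.18 (adjusted p = 0.134).

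**Figure D4:**
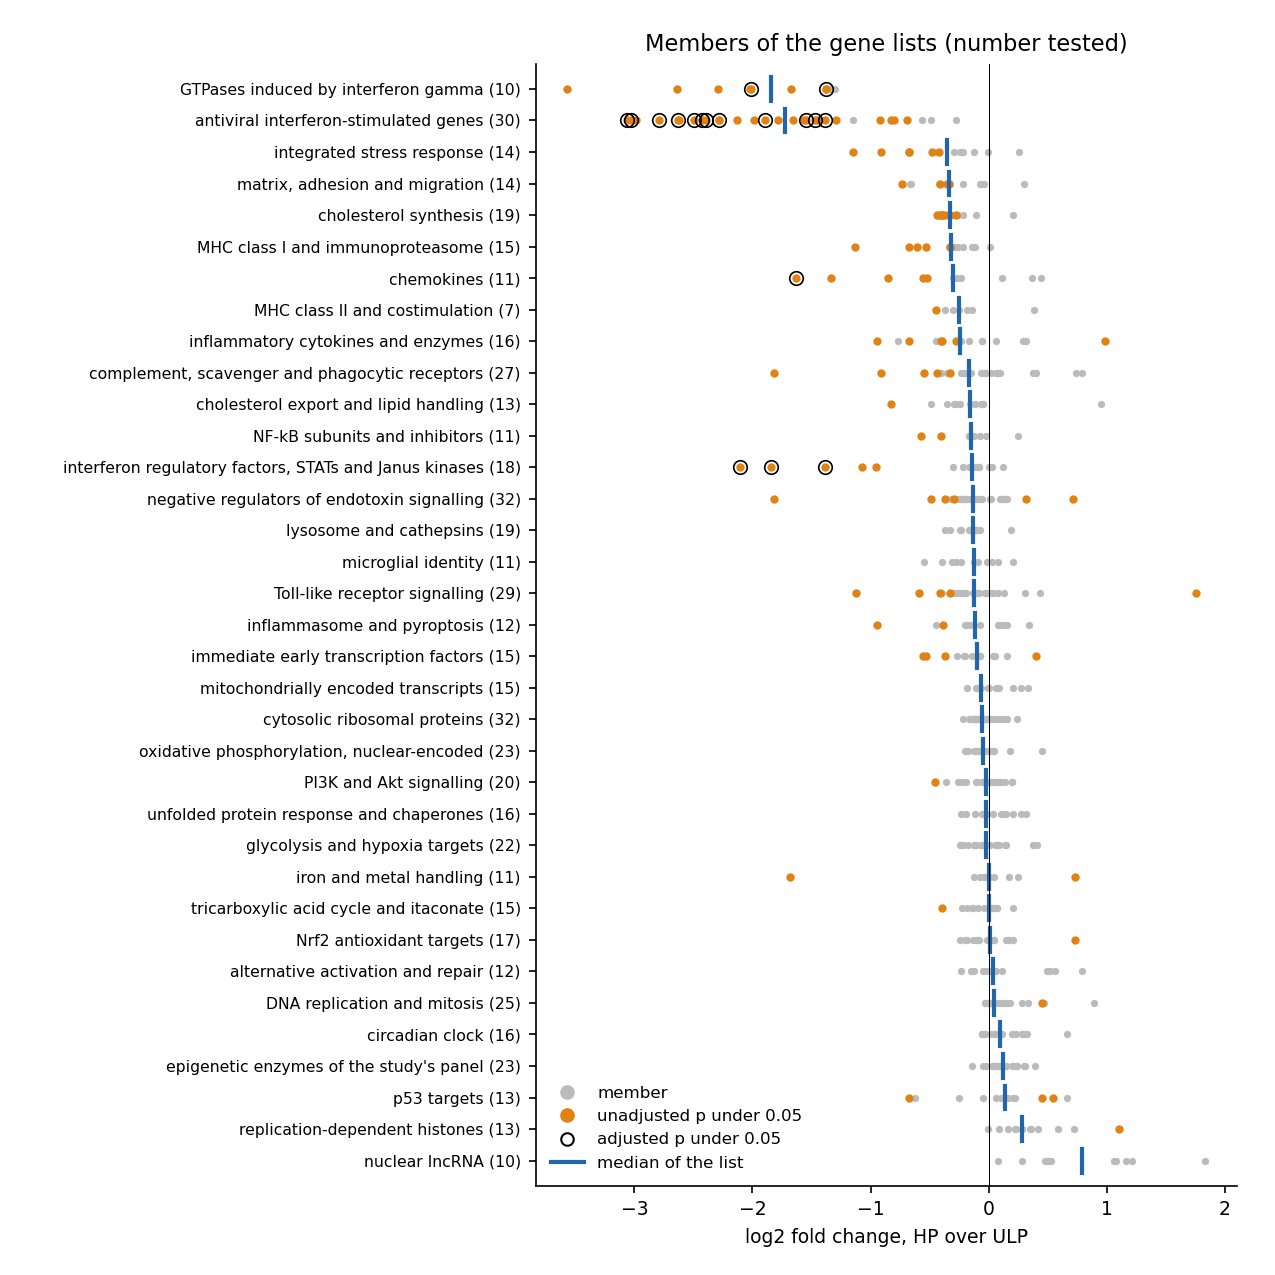
Log2 fold change of HP over ULP for each tested member of the lists with at least 7 tested genes, ordered by the median, with a bar at the median. The antiviral list (30 tested) and the GTPase list (10 tested) have medians of −1.72 and −1.84, and the next list, the integrated stress response, has −0.36.

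Genes with higher values in HP cells that edgeR did not call included Hmox1, the haem-degrading oxygenase, at 568, 512 and 674 RPKM in HP, 373, 359 and 297 in ULP and 396 to 424 in UP libraries. HP libraries lay above and ULP libraries below the UP libraries (log2 fold change 0.73 ± 0.15, adjusted p = 0.179 by edgeR and 0.00683 by DESeq2). The other 16 genes of its list, targets of the antioxidant factor Nrf2, had unadjusted p of 0.05 or more, and the list median was 0.01. Cyp11a1, the enzyme that starts steroid synthesis from cholesterol, was at 2.93, 2.90 and 3.91 RPKM in HP, 1.61, 1.52 and 1.51 in ULP and 1.95 to 2.31 in UP libraries (1.03 ± 0.17, adjusted p = 0.0593 by edgeR and 0.00010 by DESeq2). Lbp, which carries LPS to Cd14, had 1.75 ± 0.36 at levels of at most 0.292 RPKM (adjusted p = 0.152).

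For the 23 histone-modifying genes of the study's own panel, which the study chose and which is therefore not independent evidence, 20 had a positive log2 fold change with a median of 0.12. None was called by edgeR or DESeq2, 0 had an unadjusted p under 0.05, and only for Kdm5b, a demethylase of histone 3, did the HP libraries lie above the ULP libraries, as for 4.48% of all genes (0.615, 0.625 and 0.740 against 0.545, 0.540 and 0.602 RPKM). Genes of the microglial identity list, of oxidative phosphorylation, of lysosomes and of the unfolded protein response likewise had 0 called, 0 at an unadjusted p under 0.05 and 0 by DESeq2, with medians of −0.13, −0.05, −0.13 and −0.02.

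**Figure D5:**
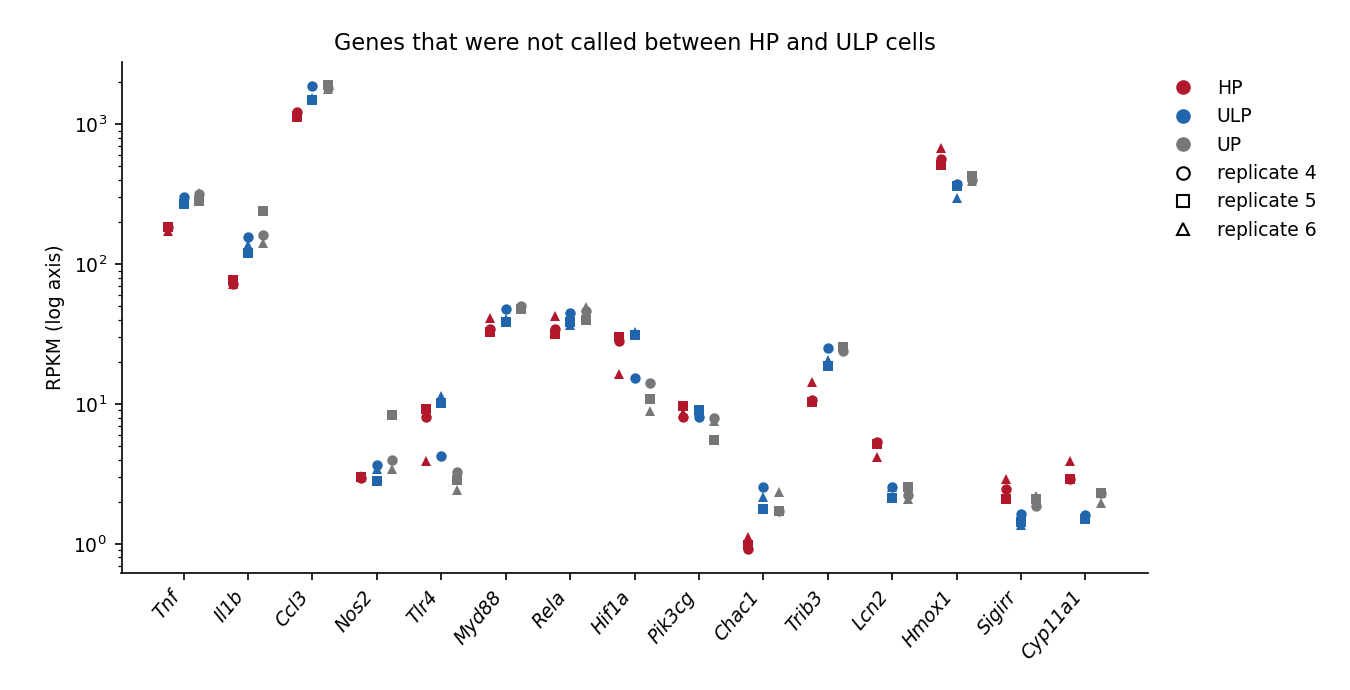
Deposited RPKM on a log axis of 15 genes that were not called, 1 point per library, with HP, ULP and UP libraries from left to right within each gene. HP points lie below ULP points for Tnf (174 to 184 against 268 to 303) and above them for Hmox1 (512 to 674 against 297 to 373), and they are mixed for Nos2, Tlr4 and Hif1a.

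The series can also be read for genes on opposite sides of UP cells. The 3 groups were free of overlap, with HP lowest and ULP above UP, for 8 genes (0.0544% of those tested): Ifit1bl1, Oas2, Parp14, Phf11d, Cp, Zadh2, Rab7b and the predicted gene Gm9762. The reverse order, with ULP lowest and HP above UP, held for 11 genes (0.0748%), among them Hmox1, Cyp11a1, Ak1, Casp6, Zbtb32 and Hip1r. In contrast, 69 genes had the order HP, ULP, UP and 40 had the order UP, ULP, HP from low to high. No test was run on these counts, and numbers as small as 8 and 11 can arise in any given order where no group differs. Oas2 was at 0.869, 1.5 and 0.580 RPKM in HP, 2.11, 2.63 and 4.40 in ULP and 1.96, 1.47 and 1.76 in UP libraries. HP 5 and UP 5 overlapped by RPKM and not in the scaled CPM by which the order was set, and the gene was called in neither contrast (log2 fold change 0.72 of ULP over UP and −0.93 of HP over UP). By RPKM, ULP and UP libraries also overlapped for Parp14 (14.7 in ULP 4 and 14.8 in UP 4), Ak1, Casp6 and Zbtb32, and HP and UP libraries for Zadh2 and Rab7b. Only Parp14, Ifit1bl1 and Ak1 of these 19 genes were called between HP and ULP cells. The 19 genes became 80 without UP 5, and 46 without ULP 5.

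A fit with the nuclear lncRNA level as a covariate called 98 genes (16 higher and 82 lower in HP), and one with a surrogate variable estimated from the same counts called 119 (19 and 100), and all 25 genes stood in both. Both fits shared 96 genes, of which 71 were not called without a covariate, 13 higher and 58 lower. Of the 58 lower ones 13 stand on the 3 interferon lists, among them Isg15, Mx2, Oas2 and Ifit1, and 16 of the 71 stand on other lists only. Tnf had a log2 fold change of −0.64 (adjusted p = 0.0220) and −0.65 (0.0169) with these covariates, Hmox1 had 0.82 (0.00871) and 0.80 (0.00845), and Lcn2 had 0.95 (0.0341) and 0.96 (0.0277). Tlr4 had −0.63 (0.0437) and −0.55 (0.0221), more than 1.5 times its value without a covariate. A covariate takes 1 of 6 residual degrees of freedom, and the nuclear level differs more within the groups than between HP and ULP, which overlap on it.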

How the data were processed

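Reads had been aligned by the authors with TopHat2 2.1.0 and counted per gene with featureCounts 1.5.0, with base calls from bcl2fastq 1.8.4, as the submitters' processing notes list. The deposited counts are whole numbers for 48526 genes and were not normalized. The authors derived the deposited RPKM values from them, scaled to the library total and the gene length. The deposited RPM values were not used. The processing notes name GRCm38 and the supplement another build, so that no gene coordinates were taken from the files. No source used here says how reads with several matches were treated.

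From the counts, filterByExpr kept 14702 genes, TMM scaled the libraries, and a quasi-likelihood model of edgeR 4.0.16 (R 4.3.3) was fitted with a term for the group over all 9 libraries. DESeq2 1.42.0, limma 3.58.1 on log2(RPKM + 0.1) or log2(RPKM + 1) and a surrogate variable from sva 3.50.0 served in alternatives, beside RLE size factors, no filter, offsets for length or GC content (found for 99.1% of genes tested), a replicate block and leaving out libraries. Fold changes are log2 of HP over ULP with their SE. Libraries were called free of overlap in TMM-scaled CPM.

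Members, lists, tests and named genes were chosen with earlier results of these data known. Named were the genes the study measured, the 10 largest differences a direction among named genes without overlap and with a mean CPM of at least 5, genes with an adjusted p under 0.05, up to 4 members per list by unadjusted p under 0.05, and genes with HP and ULP on opposite sides of UP. Further list members and the interferon ligand and receptors were named after their values were seen. Promoters came from RefSeq (GRCm38.p6) and were matched by symbol.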

Additional observations from a re-analysis of the deposited data

How the results depend on the processing

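The number of genes called between HP and ULP cells (25) moved to 53 without a filter on low counts, 39 with the length offset, 57 with the GC offset, 98 with the nuclear lncRNA covariate, 119 with the surrogate variable, 107 with DESeq2, 10 with limma on log2(RPKM + 1), 8 without ULP 4 and HP 6, 309 in a fit of the 4 HP and ULP libraries left without these, which was chosen after seeing the data and has 2 residual degrees of freedom, and 0 with only the 6 HP and ULP libraries. Leaving out 1 library or 1 replicate number gave 0 to 30 genes, and without replicate number 4, 5 or 6 it was 0 each time. The antiviral count (12) moved to 0 with only the 6 libraries, 20 and 22 with the nuclear covariate and the surrogate variable, 22 with DESeq2, 3 with limma on log2(RPKM + 1), 3 without ULP 4 and HP 6 and 25 in the fit of the 4 libraries, with 0 to 11 when a library or number was left out. The count of genes with HP and ULP on opposite sides of UP (19) was 24 to 80 when 1 library was left out and 46 without ULP 4 and HP 6. The cause of these changes was not tested.

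Deviations of same-numbered HP and ULP libraries from their group means had correlations of −0.72 for number 4, 0.68 for number 5 and −0.84 for number 6. Pairs of unlike number ran from −0.83 (HP 5 and ULP 4) to 0.90 (HP 6 and ULP 4). Deviations within a group depend on each other, so these values cannot settle whether the numbers pair the samples. With a replicate block 0 genes were called, also with the length or the GC offset (smallest adjusted p = 0.0971, 0.0815 and 0.0688), and the antiviral count was 0, 0 and 0. Of the genes named, 3 without a call changed sign. With a library or number left out Tlr4 ranged from −0.71 to 0.22, Hif1a from −0.47 to 0.27 and Pik3cg from −0.074 to 0.043, and Pik3cg had 0.023 and 0.021 with limma on log2(RPKM + 0.1) and log2(RPKM + 1). At 24189203 to 27802244 counts a library, genes such as Ifnb1, Il6 and Il10 stayed too low to be compared.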
